A study of Mus musculus with 6 samples.

Results

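Collagens and laminins are the chains from which the extracellular matrix is built. The chain genes were taken by symbol: every protein-coding mouse gene named as a collagen alpha chain (Col, number, a, number) or as a laminin alpha, beta or gamma chain (Lama, Lamb, Lamc), with 6 or more counts over the 6 libraries. This left 45 genes out of 24553 genes and unmatched rows in the table, of which 8 encode fibrillar collagen chains, 14 encode basement membrane chains (collagen IV and laminins) and 23 encode other collagen chains. All 55 genes with such names were in the table, and 10 of them had under 6 counts.

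The RNA came from cortex, taken on day 14 after an experimental stroke, when the mice (C57BL/6J males) were 15 weeks old. In 3 libraries the animals had been given short-chain fatty acids (SCFA, the small acids that gut bacteria make from fibre) in their drinking water, and in the 3 control libraries a salt-matched drink. Both were given ad libitum over 4 weeks, starting when mice were 6 to 8 weeks old. Animals of both groups also drank vancomycin, ampicillin, neomycin and Metronidazol in 5% sucrose. The design text gives 3 mice in each group, so a library was taken as 1 animal, and no library from mice without stroke or without antibiotics was analysed here. The sources used here do not give the hemisphere or the distance from the lesion, so a difference between libraries in the tissue that was cut out cannot be told apart from a difference between animals.

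Total counts ran from 9275252 to 13862756 per library, and 5092272 to 7776672 remained outside 1 unmatched row that took 35.0% to 55.3% of a library. The chain genes held 7035, 12934 and 9161 counts in SCFA 1 to 3, against 8454, 7515 and 17273 in controls 1 to 3. Control 2 had counts for 13013 genes, where the other 5 libraries had counts for 14948 to 15694. Markers of neurons, which the cortex label calls for, summed to 2779 to 2967 CPM (counts scaled to library size) in SCFA libraries and 2483 to 2694 CPM in control libraries, with Slc17a7, the most abundant, at a log2 fold change of 0.30 (SE 0.140) and Map2 at 0.20 (SE 0.123). Of the choroid plexus markers, Folr1 had 0 counts, and the whole list of 8 genes summed to 2.31 to 9.76 CPM with SCFA and 2.54 to 4.31 CPM in controls, with Kl at a log2 fold change of 0.78 (SE 1.03) and Clic6 at 0.02 (SE 1.22).

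Fibrillar collagens assemble into the tensile fibrils of connective tissue, which in the brain lie mostly in the meninges and around larger vessels, and which are laid down by fibroblasts in the scar after injury. Basement membranes are thin sheets under endothelium and under the astrocyte endfeet, built on a laminin network and a collagen IV network that other proteins tie together. A laminin is made of 1 alpha, 1 beta and 1 gamma chain, and collagen chains wind into a triple helix, so the chains of a molecule are made together in the cells that secrete it.

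Chain genes with several transcript rows had few counts or none. The counts were made per RefSeq transcript, and the sources used here do not give the treatment of reads that several transcripts share. The 41 family genes with 1 row had 38 to 13050 counts over all libraries (median 539). The 14 with 2 or more rows had 0 to 54 counts (median 1), and 5 of them stood at 0. Col4a1, the partner of Col4a2 in the main collagen IV of vessels, had 3 counts in all, where Col4a2 had 2311. Over all protein-coding genes the split was less sharp: 34.3% of those with 2 or more rows could be tested (median 17 counts), against 61.3% of those with 1 row (median 293 counts). The part of the row number in these counts was not tested, and a low count in a gene with several rows was not read as low expression. This touches the 10 genes under the limit of 6 counts, all of which have several rows. They were Col4a1 (3 counts), Col18a1 (2), Col9a1, Col13a1 and Lamb3 (1 each), and Col2a1, Col4a5, Col5a3, Col17a1 and Col24a1 (0 each). The gene just inside the limit was Col25a1, with 6 counts.

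**Figure D1:**
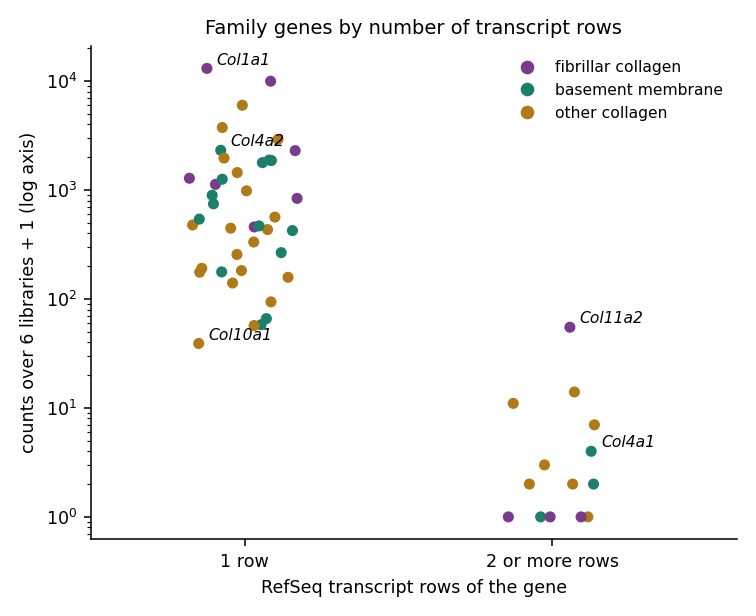
Counts over all 6 libraries, plus 1, on a log axis, for the 55 family genes, split by whether RefSeq lists 1 transcript row or several, with colour marking the class. The genes with 1 row start at 38 counts, and the highest gene with several rows, Col11a2, reaches 54.

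Per kilobase of transcript, Col1a2, Col19a1 and Col1a1 had the highest medians among the chains. Levels are CPM per kilobase of the matched transcript, over the 41 chain genes with 1 row. Col1a2 had a median over the 6 libraries of 20.2 (range 13.7 to 76.8), Col19a1 of 19.9 (14.3 to 31.8) and Col1a1 of 18.7 (12.01 to 119.7). These leading chains overlapped in range and their order is not fixed by these libraries. Col6a1 followed at 14.6 (9.79 to 15.3), and its partner Col6a2 at 6.42 (5.03 to 10.1), then Col3a1 at 6.19 (3.80 to 7.95). The highest basement membrane chains were Col4a2 at 5.46 (3.00 to 6.97), Lamb2 at 4.41 (3.87 to 6.56) and Lamc1 at 3.43 (2.58 to 5.12), whose ranges also overlapped. At the low end Col4a4 measured 0.0732 (0.0228 to 0.177) and Col4a3 0.0888 (0.0135 to 0.170), the chains of the collagen IV known from kidney and inner ear.

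Of the 45 chain genes, 39 had enough counts to be tested between SCFA and control, and 0 were called higher or lower by the quasi-likelihood test of edgeR (threshold 0.05 after Benjamini-Hochberg adjustment). Over all 11969 tested genes, 0.0835% were called in either direction, 0.00835% higher and 0.0752% lower. DESeq2 and limma-voom also called 0 of the chains. At an unadjusted p under 0.05 there was 1 chain gene higher with SCFA, Col20a1, where 2.97% of all genes were, and 4 lower, Col1a1, Col1a2, Col19a1 and Lamc3, where 2.79% were. In either direction these were 5 of the 39, beside 5.76% of all tested genes. The median log2 fold change of the 39 chains was 0.08, beside 0.01 over all genes tested. By class the median was -0.20 for 7 fibrillar chains (2 above 0, 5 below), 0.15 for 14 basement membrane chains (10 above, 4 below) and 0.07 for 18 other collagen chains (10 above, 8 below), and 50.9% of all tested genes lay above 0. Scaling by total counts moved the median of all genes to 0.18 and that of the fibrillar chains to 0.06, so the sign of the fibrillar median depended on the scaling. In bulk tissue, fewer cells of a type and less RNA per cell cannot be told apart, and this holds for every value here.

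**Figure D2:**
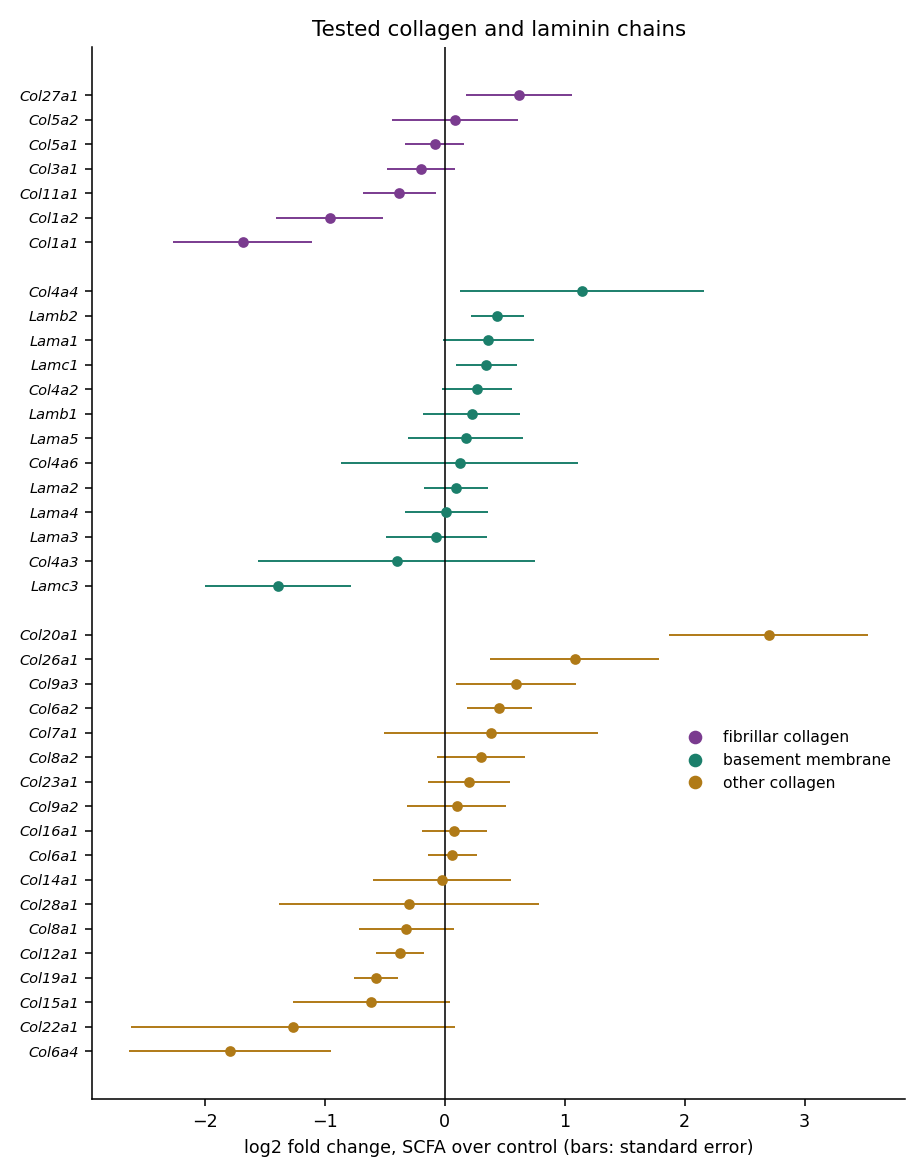
Log2 fold change of SCFA over control for 38 of the 39 tested chain genes, by class and ordered within it, with bars of 1 standard error. The values run from 2.70 for Col20a1 to -1.79 for Col6a4, and none passed at an adjusted p under 0.05.

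Type I collagen was the fibrillar collagen with the largest difference, which rested on 1 control library. Col1a1 (chromosome 11, 94936224 to 94953042, GRCm38) encodes the chain that makes up most of the type I helix. It measured 77.8, 139.9 and 71.2 CPM in SCFA 1 to 3, against 81.5, 140.3 and 709.7 CPM in controls 1 to 3. Control 3 stood apart, and the other 5 libraries lay within a common range. The mean was 96.3 ± 37.9 CPM with SCFA and 311 ± 347 CPM in controls (SD, n = 3 each). The log2 fold change was -1.69 (SE 0.582, edgeR adjusted p = 0.864). Col1a2 (chromosome 6, 4505618 to 4541543), the other type I chain, measured 92.0, 118.7 and 98.2 CPM with SCFA, against 73.4, 117.8 and 410.7 CPM in controls. It showed the same single high library, with a log2 fold change of -0.96 (SE 0.444, edgeR adjusted p = 0.864). Among all 11969 tested genes, the excess of control 3 over the next highest library ranked first for Col1a1, at 5.06-fold, and second for Col1a2, at 3.46-fold. The ranking was made on log2 CPM with a small constant added. Genes with counts in too few libraries to be tested were not ranked, and their excess can be larger.

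Without control 3 the type I difference was not seen. The mean of the 3 SCFA libraries was 96.3 CPM for Col1a1 and 103 CPM for Col1a2, against 111 CPM for Col1a1 and 95.6 CPM for Col1a2 in controls 1 and 2. The log2 fold change was then -0.20 for Col1a1 (edgeR adjusted p = 0.932) and 0.11 for Col1a2 (edgeR adjusted p = 0.950). Over all settings the adjusted p of Col1a1 ran from 1.40e-20 to 0.9999. The lowest came from edgeR with every low gene kept in, which gave the same log2 fold change with a standard error of 0.166 in place of 0.582, and which called Col1a2 as well (adjusted p = 6.00e-06, in a range up to 0.9999). Without control 2 and SCFA 2, the libraries with the lowest and the highest scaling factor, Col1a1 was called lower (log2 fold change -2.41, SE 0.487, edgeR adjusted p = 0.0339) and control 3 was 1 of the 2 remaining controls.

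**Figure D3:**
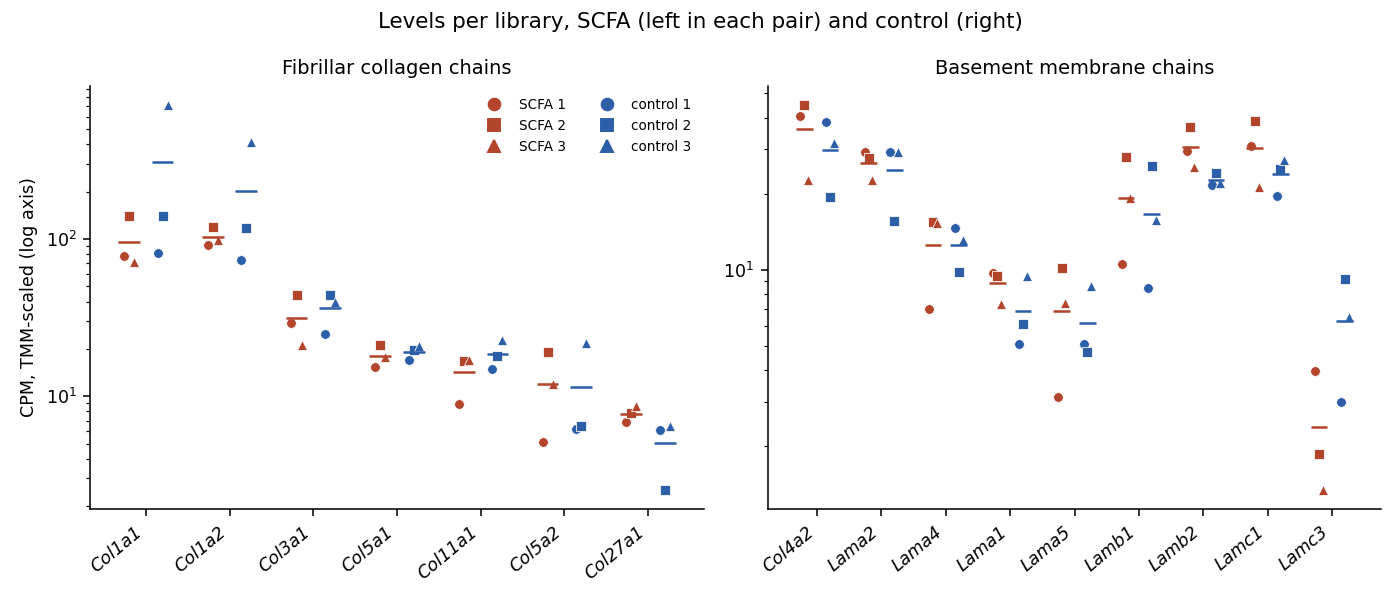
CPM per library on a log axis for the 7 tested fibrillar chains (left panel) and for 9 basement membrane chains (right panel), SCFA in red on the left of each pair and control in blue on the right, with a line at each group mean and 1 marker shape per replicate number. Control 3 lies at 709.7 CPM for Col1a1 and 410.7 CPM for Col1a2, above all other libraries, and the groups overlap in most other genes.

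The balance of fibrillar chains differed in control 3 as well. The ratio of Col1a1 to Col1a2 counts was 0.846, 1.18 and 0.726 in SCFA 1 to 3, against 1.11, 1.19 and 1.73 in controls 1 to 3. The ratio of Col1a1 to Col3a1 counts was 2.67, 3.17 and 3.37 with SCFA, against 3.27, 3.17 and 17.9 in controls. Col3a1 (chromosome 1, 45311538 to 45349706), the type III chain that co-assembles with type I in soft tissue, was thus not high in control 3. Col3a1 measured 29.2, 44.1 and 21.1 CPM with SCFA, against 24.9, 44.3 and 39.7 CPM in controls, with overlapping groups (log2 fold change -0.20, SE 0.285, edgeR adjusted p = 0.958).

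The regions upstream of Col1a2 and Col3a1 are shown because these chains co-assemble in fibrils, and Col1a2 was high in control 3 where Col3a1 was not. They are RefSeq sequences of GRCm38.p6, read 5′ to 3′ on the plus strand, from chr6:4505370-4505492 for Col1a2 and from chr1:45311288-45311537 for Col3a1, with stretches inside annotated exons left out. Capitals mark the GC box, spelled GGGCGG, in Col1a2, and the TATA box, spelled TATAAA, in Col3a1. Both were searched on either strand, as was the CCAAT box, spelled CCAAT, and no match overlaps another in the sequences shown.
Col1a2: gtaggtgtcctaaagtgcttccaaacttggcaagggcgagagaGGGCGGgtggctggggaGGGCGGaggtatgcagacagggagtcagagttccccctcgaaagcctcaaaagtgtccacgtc
Col3a1: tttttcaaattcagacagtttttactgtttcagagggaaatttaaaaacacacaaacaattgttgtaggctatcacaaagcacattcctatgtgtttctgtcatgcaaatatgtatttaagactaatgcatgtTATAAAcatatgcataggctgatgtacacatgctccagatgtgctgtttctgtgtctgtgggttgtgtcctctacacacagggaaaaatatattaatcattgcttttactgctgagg
In the whole window of 250 bases before the start site, Col1a2 held 2 GC boxes, 1 CCAAT box that lies in the part not printed, and 0 TATA boxes, with a GC content of 62.0%. Col3a1 held 1 TATA box, 0 CCAAT boxes and 0 GC boxes, with a GC content of 35.2%. The RefSeq table held windows for 31 of the 45 chain genes, 32 windows in all. Of these, 21 held a GC box, 8 a CCAAT box and 3 a TATA box, where 32.7%, 33.9% and 12.4% of all 32851 windows did. A match of letters is a description of the window and not a binding site. The part of these sequences in the levels of control 3 was not tested.

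Genes of bone-forming cells were examined beside type I collagen, as a list of 13 chosen after the values of control 3 had been seen. Bone matrix is made mainly of type I collagen with little type III. The osteocalcin genes Bglap and Bglap2, near-identical copies whose reads cannot be split with certainty, are secreted by osteoblasts. Bglap had 7, 14 and 3 counts in SCFA 1 to 3, against 4, 0 and 77 in controls 1 to 3. Bglap2 had 7, 0 and 2 counts with SCFA, against 4, 0 and 83 in controls. Ibsp, a bone sialoprotein gene, had 10, 24 and 14 counts with SCFA, against 0, 40 and 80 in controls. These genes were highest in control 3, as was Phex, and these were 4 of the 13. The osteoblast transcription factor gene Sp7 had 12, 15 and 6 counts with SCFA, against 8, 0 and 6 in controls, and was not high there. The osteocyte genes Mepe and Sost were at 0 in all libraries, Dmp1, Omd and Phospho1 were highest in control 2, and Ifitm5, Alpl and Spp1 were highest in an SCFA library at no more than 7 counts, and Alpl and Spp1 have several rows, so their low counts were not read as low expression. The list summed to 18.7 to 21.8 CPM with SCFA and to 15.6 to 52.9 CPM in controls, with control 3 highest. The part of bone cells in the type I collagen level was not tested.

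**Figure D4:**
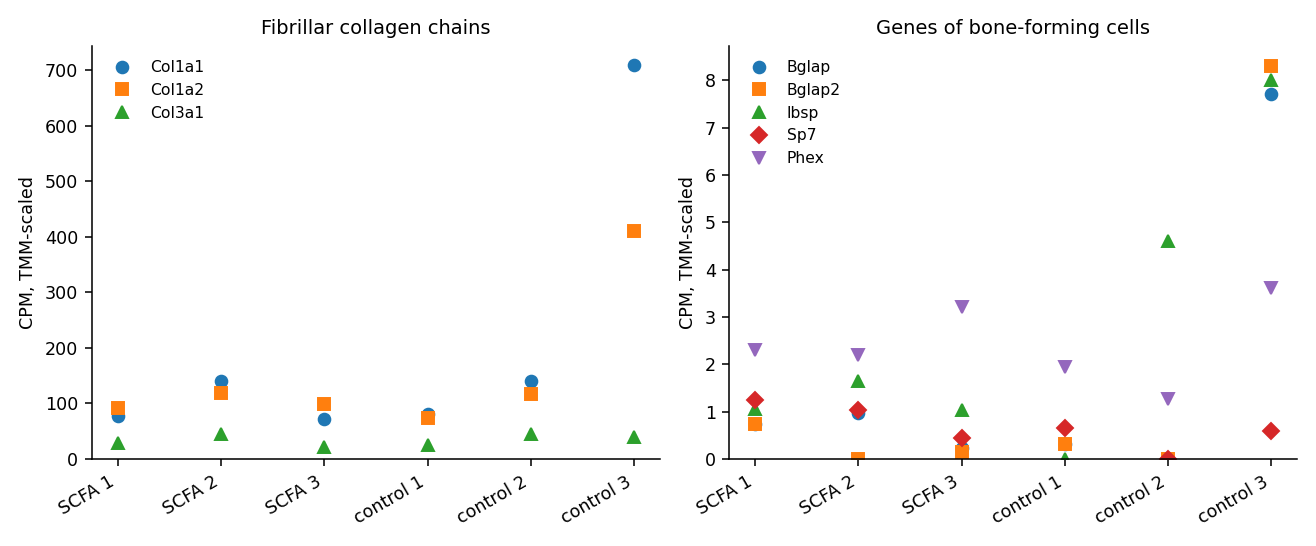
CPM per library, SCFA libraries on the left and controls on the right, for 3 fibrillar chains (left panel) and 5 of the 13 listed genes of bone-forming cells (right panel). Control 3 is highest for Col1a1 and Col1a2 and for Bglap, Bglap2, Ibsp and Phex, and not for Col3a1 or Sp7. Dmp1, Omd and Phospho1, which were highest in control 2, are among the genes not plotted.

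Among the other fibrillar chains, Col5a1 and Col11a1 had overlapping groups, and Col5a2 and Col27a1 varied more between libraries. Col5a1, the type V chain that starts fibrils, measured 15.3, 21.2 and 17.6 CPM with SCFA, against 17.1, 19.7 and 20.7 CPM in controls (log2 fold change -0.09, SE 0.246). Col11a1, a type XI chain, measured 8.98, 16.6 and 16.97 CPM with SCFA, against 14.9, 18.1 and 22.7 CPM in controls (log2 fold change -0.38, SE 0.305). Col5a2, the second type V chain, measured 5.12, 19.0 and 11.98 CPM with SCFA, against 6.15, 6.45 and 21.7 CPM in controls. In Col5a2 control 3 was again the highest library, and the log2 fold change was 0.08 with all libraries (SE 0.524) and 0.95 without control 3. In all, control 3 was the highest library for 4 of the 7 tested fibrillar chains, Col1a1, Col1a2, Col5a2 and Col11a1. It was the highest for 14.07% of all tested genes. Col27a1, a chain of cartilage fibrils, was the only tested fibrillar chain whose groups did not overlap, at 6.90, 7.77 and 8.64 CPM with SCFA against 6.07, 2.54 and 6.51 CPM in controls. Its log2 fold change was 0.62 (SE 0.441, edgeR adjusted p = 0.902). Summed without Col1a1 and Col1a2, the fibrillar chains stood at 65.9, 111 and 76.5 CPM with SCFA, against 69.5, 91.2 and 112 CPM in controls. Col11a2 had too few counts to test, with 5, 35 and 2 counts with SCFA against 5, 1 and 6 in controls.

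**Figure D5:**
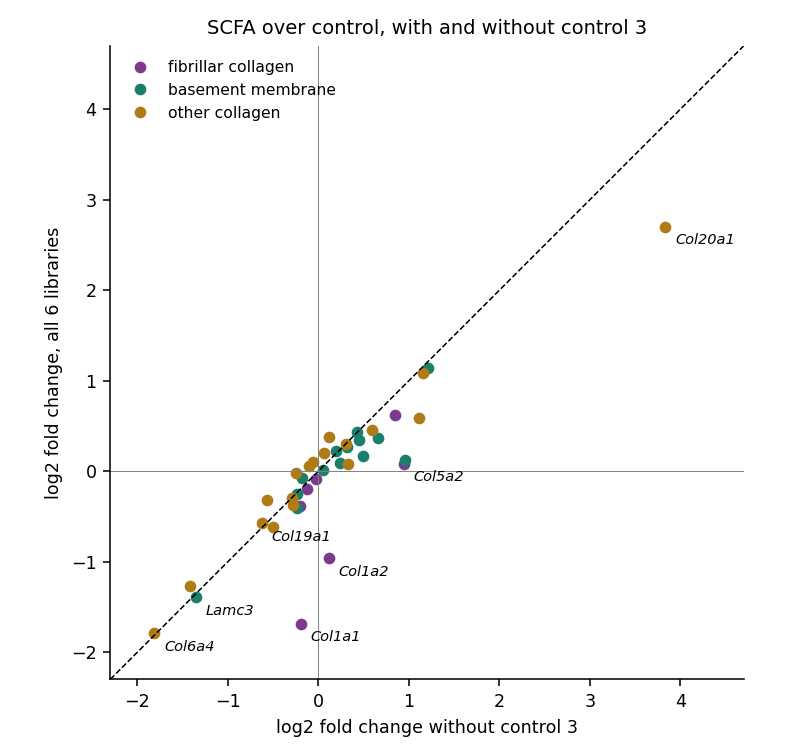
Log2 fold change of SCFA over control fitted on all 6 libraries (vertical axis) against the same fitted without control 3 (horizontal axis), for the 39 tested chain genes, with a dashed line of equality. Col1a1 and Col1a2 lie far below the line, at -1.69 and -0.96 with all libraries and at -0.20 and 0.11 without control 3, and most other chains lie near it.

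Basement membrane chains measured slightly above control in most cases, without passing. Of the 14 chains, 10 had a log2 fold change above 0. Summed over the class, CPM was 178, 234 and 170 in SCFA 1 to 3, against 168, 160 and 187 in controls 1 to 3, and the groups overlapped. SCFA 2 was the highest library for 7 of the 14 chains, where it was the highest for 20.4% of all tested genes, and controls 1 and 2 were each the lowest for 5, where control 1 was the lowest for 12.9% and control 2 for 30.8% of all tested genes. Without control 2 and SCFA 2 the class median was -0.18, against 0.15 with all libraries.

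Among the laminin beta and gamma chains, Lamb2 had the smallest p in the direction of higher values. Lamb2 (chromosome 9, 108479847 to 108490530), a beta chain of vascular and synaptic laminins, measured 29.6, 36.9 and 25.5 CPM with SCFA, against 21.8, 24.1 and 22.1 CPM in controls. Each SCFA library lay above each control, with a log2 fold change of 0.44 (SE 0.220, edgeR adjusted p = 0.881). Lamc1, the gamma chain of most laminins (chromosome 1, 153218922 to 153332786), measured 31.0, 39.0 and 21.2 CPM with SCFA, against 19.7, 25.0 and 27.2 CPM in controls (log2 fold change 0.35, SE 0.255). Lamb1, another laminin beta chain, measured 10.6, 28.1 and 19.2 CPM with SCFA, against 8.50, 25.7 and 15.8 CPM in controls (log2 fold change 0.22, SE 0.404). It varied over a wider range within each group than between the groups. The ratio of Lamb1 to Lamb2 counts was 0.357, 0.762 and 0.752 with SCFA, against 0.390, 1.07 and 0.715 in controls. SCFA 1 and control 1 had the lowest ratios, and the groups overlapped.

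Lamc3 went the other way. This gamma chain, whose loss in humans disturbs folding of the occipital cortex, lies on chromosome 2 from 31887281 to 31949083. It measured 3.97, 1.86 and 1.34 CPM with SCFA, against 3.00, 9.22 and 6.51 CPM in controls. SCFA 1 lay above control 1, so the groups overlapped, and the log2 fold change was -1.39 (SE 0.608, edgeR adjusted p = 0.864). An antisense gene, Gm13441, shares 382 exonic bases with Lamc3, and reads of the pair cannot be separated without a known strand setting.

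The laminin alpha chains, which carry most of the binding sites for receptors, showed small differences. Lama1, an alpha chain of meningeal basement membranes, measured 9.72, 9.49 and 7.30 CPM with SCFA, against 5.10, 6.11 and 9.41 CPM in controls (log2 fold change 0.36, SE 0.378). Lama2, the chain of astrocyte endfoot and muscle laminins, measured 29.3, 27.8 and 22.6 CPM with SCFA, against 29.3, 15.7 and 29.4 CPM in controls (log2 fold change 0.09, SE 0.264). Control 2 was low for Lama2, and Lama2 shares 631 exonic bases with the antisense gene Gm48084. Of the endothelial alpha chains, Lama4 measured 6.999, 15.4 and 15.3 CPM with SCFA, against 14.7, 9.80 and 13.1 CPM in controls (log2 fold change 0.01, SE 0.345). Lama5 measured 3.13, 10.2 and 7.37 CPM with SCFA, against 5.10, 4.73 and 8.61 CPM in controls (log2 fold change 0.17, SE 0.481). In both, SCFA 1 was the lowest library. Lama3, an alpha chain of the laminin of skin, had a log2 fold change of -0.07 (SE 0.423), and it shares 197 exonic bases with the antisense gene Gm29200.

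Collagen IV could be followed mainly through Col4a2 (chromosome 8, 11312805 to 11449287), which lies head to head with Col4a1 and shares 22 exonic bases with it on the opposite strand. Col4a2 measured 40.5, 45.0 and 22.8 CPM with SCFA, against 38.7, 19.4 and 31.7 CPM in controls. SCFA 3 and control 2 were the low libraries, the groups overlapped, and the log2 fold change was 0.27 (SE 0.292, edgeR adjusted p = 0.945). Col4a6, a chain of the type found in smooth muscle, had 21, 43 and 35 counts with SCFA, against 32, 0 and 45 in controls, and the 0 in control 2 allows up to 0.346 CPM. Col4a4 had 12, 26 and 9 counts with SCFA, against 10, 2 and 6 in controls (log2 fold change 1.14, SE 1.02). Col4a3, its partner, had 4, 20 and 3 counts with SCFA, against 18, 1 and 11 in controls (log2 fold change -0.40, SE 1.16). Col4a3 shares 563 exonic bases with C430014B12Rik on the opposite strand. At these depths no difference between the groups was detectable for Col4a3, Col4a4 and Col4a6.

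Among the other collagens, Col20a1 had the largest fold change of all tested chains. Col20a1 (chromosome 2, 180983323 to 181017545) encodes a chain of the family that decorates fibrils. It had 33, 79 and 58 counts in SCFA 1 to 3, against 2, 4 and 14 in controls 1 to 3, or 3.45, 5.43 and 4.32 CPM against 0.162, 0.461 and 1.40 CPM. Every SCFA library lay above every control, and the log2 fold change was 2.70 (SE 0.830, unadjusted p = 0.00612, edgeR adjusted p = 0.864). Its p ranked 79 among the 11969 genes. The log2 fold change stayed between 2.22 and 3.84 over the alternatives, and the adjusted p between 0.209 with DESeq2 and 0.9996. GENCODE places a noncoding gene, BX649560.1, on the same strand over 79 of its exonic bases.

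Col19a1, a basement membrane zone collagen that interneurons of the mouse brain express, was the other chain with separate groups and an unadjusted p under 0.05. On chromosome 1 from 24257683 to 24587922, it measured 77.7, 60.9 and 80.0 CPM with SCFA, against 89.4, 135.7 and 100.8 CPM in controls. Every SCFA library lay below every control (log2 fold change -0.58, SE 0.186, unadjusted p = 0.0084, edgeR adjusted p = 0.864). Of the controls, control 2 was the highest, and without control 2 the log2 fold change was -0.39. In all, 5 of the 39 chains had groups that did not overlap with SCFA higher, where 6.42% of all tested genes did, and Col19a1 was the only one with SCFA lower, where 5.74% did. The other chains with SCFA higher were Col26a1, at 5.43, 5.02 and 4.02 CPM against 3.89, 0.346 and 2.50 CPM (log2 fold change 1.08, SE 0.706), and Col8a2, a network collagen chain, at 8.04, 7.77 and 7.07 CPM against 5.83, 6.57 and 6.21 CPM (0.30, SE 0.367), beside Col20a1, Col27a1 and Lamb2.

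Collagen VI forms beaded filaments around cells. Its chain Col6a1 (chromosome 10, 76708792 to 76726044) measured 62.7, 59.8 and 45.1 CPM with SCFA, against 60.4, 59.8 and 40.1 CPM in controls (log2 fold change 0.06, SE 0.206). Col6a2, which lies beside it, measured 40.01, 39.1 and 19.9 CPM with SCFA, against 21.5, 22.2 and 28.4 CPM in controls (log2 fold change 0.45, SE 0.272). The groups overlapped in both. The ratio of Col6a1 to Col6a2 counts was 1.57, 1.53 and 2.27 with SCFA, against 2.81, 2.69 and 1.41 in controls. The third chain of the common trimer, Col6a3, has several rows and had 10 counts. Col6a4, an alternative to it, had 5, 30 and 10 counts with SCFA, against 15, 59 and 38 in controls (log2 fold change -1.79, SE 0.841, edgeR adjusted p = 0.864), with SCFA 2 above control 1 in CPM and 162 exonic bases shared with the antisense gene Gm47575.

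Col12a1, a chain bound to the surface of type I fibrils, was highest in control 3 too, but only slightly above control 2. Col12a1 measured 45.9, 36.0 and 33.0 CPM with SCFA, against 39.98, 53.1 and 55.8 CPM in controls (log2 fold change -0.38, SE 0.204, edgeR adjusted p = 0.889). The remaining 12 tested chains of this class were Col7a1, Col8a1, Col9a2, Col9a3, Col14a1, Col15a1, Col16a1, Col22a1, Col23a1 and Col28a1, together with Col8a2 and Col26a1 above. Leaving out those last 2, their log2 fold changes ran from -1.27 for Col22a1 (SE 1.35) to 0.59 for Col9a3 (SE 0.501), and the groups overlapped in each. Col22a1 had 24, 0 and 15 counts with SCFA against 78, 0 and 22 in controls. Col28a1 had 35, 4 and 4 counts with SCFA against 11, 22 and 17 in controls. Too few counts to test were found for Col6a5 (56 in all), Col10a1 (38), Col6a6 (13), Col6a3 (10) and Col25a1 (6), and Col10a1 had 22 of its 38 counts in SCFA 3.

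The enzymes and partners of these chains were described from 7 lists of the pathway. In the order below, these lists held 14, 10, 8, 11, 8, 10 and 14 tested genes. Of these, 0 passed in either direction (edgeR), beside 0.0835% of all tested genes. Before adjustment, 2 of them had an edgeR p below 0.05, both higher, and 2.97% of all tested genes were higher by that measure. Of the collagen folding and modification genes, 14 of 18 were tested, with 11 above 0 and a median log2 fold change of 0.25. The lysyl hydroxylase genes Plod1 (13.9, 17.9 and 15.0 CPM with SCFA, against 8.50, 11.9 and 10.9 CPM in controls) and Plod3 (19.3, 25.5 and 18.8 CPM, against 8.74, 18.7 and 17.1 CPM) had groups that did not overlap. Their log2 fold changes were 0.58 (SE 0.285) and 0.52 (SE 0.306), both with an edgeR adjusted p above 0.8 (0.880 and 0.889). Sec23a, a coat protein gene of the vesicles that carry procollagen, was the most abundant at a log2 fold change of 0.02 (SE 0.138).

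Of the procollagen processing and crosslinking genes, 10 of 15 were tested, with a median of 0.17. Pcolce, an enhancer of the protease that trims fibrillar procollagen, measured 16.6, 10.5 and 9.75 CPM with SCFA, against 3.80, 4.15 and 10.9 CPM in controls. Control 3 lay above SCFA 2 and SCFA 3, and the log2 fold change was 0.96 (SE 0.442, edgeR adjusted p = 0.864). The protease gene Bmp1 measured 0.89 on the log2 scale (SE 0.692), and Pxdn, the peroxidase that crosslinks collagen IV, -0.14 (SE 0.216). Other basement membrane proteins had 8 of 11 genes tested and a median of 0.09, with the perlecan gene Hspg2 at 0.48 (SE 0.491), Fbln1 at 0.26 (SE 0.344) and the agrin gene Agrn at -0.05 (SE 0.182). Hspg2 was low in control 2, at 2.42 CPM, where the other 5 libraries had 7.61 to 15.5 CPM.

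Fibril-associated proteins had 11 of 15 genes tested and a median of 0.11. Fmod, a small proteoglycan of fibrils, measured 24.1, 23.2 and 22.4 CPM with SCFA, against 16.1, 20.3 and 14.6 CPM in controls, with no overlap (log2 fold change 0.45, SE 0.237, edgeR adjusted p = 0.881). The elastin gene Eln had a log2 fold change of 1.13 (SE 0.807) and the proteoglycan gene Ogn of 0.11 (SE 0.221). Of the receptor genes, 8 of 15 were tested, with a median of 0.05. The collagen receptor genes Ddr2 and Itga10 had log2 fold changes of -0.50 (SE 0.245) and -1.04 (SE 0.517), and the groups of Itga10 did not overlap. Over all tested genes, groups did not overlap in 6.42% with SCFA higher, as for Fmod, and in 5.74% with SCFA lower, as for Itga10. Itgb1, the beta integrin shared by most collagen and laminin receptors, measured 0.05 (SE 0.137).

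Matrix proteases and inhibitors had 10 of 16 genes tested and a median of 0.11, with the inhibitor genes Timp2 at 0.33 (SE 0.188) and Timp3 at 0.26 (SE 0.172) and the protease gene Adam10 at -0.01 (SE 0.135). In the TGF-beta signalling list, the pathway that drives collagen synthesis in fibroblasts, 14 of 16 genes were tested with a median of 0.06 and 7 above 0. Tgfb1 measured 9.30, 12.4 and 5.81 CPM with SCFA, against 4.53, 5.30 and 5.01 CPM in controls, with no overlap (log2 fold change 0.89, SE 0.405, edgeR adjusted p = 0.864). Tgfb3 had a log2 fold change of -0.46 (SE 0.332) and Smad4 of -0.12 (SE 0.182). Tgfb1 and Pcolce were the genes of these lists with an unadjusted p under 0.05, where 2.97% of all tested genes were higher at that level. Groups without overlap and with SCFA higher, as for Tgfb1, were found in 6.42% of all tested genes.

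Markers of the cells that make these chains were summed beside them. Fibroblast and meninges markers, 11 genes with Lama1 left out, of which Dcn, Lum, Ogn and Fmod also stand in the list of fibril-associated proteins, ran from 164.5 to 187.2 CPM with SCFA and from 156.7 to 237.1 CPM in controls. The sum was highest in control 2, where Mgp alone measured 129.9 CPM, and lay at 183.1 CPM in control 3, with Mgp at 68.7 CPM. Single genes of the list differed: some were highest in control 3 and others, such as Mgp, in another library. The part of these cells in the type I collagen level was not tested. Their median log2 fold change was -0.07 over 10 genes, with Mgp, a matrix protein gene of vessels and cartilage, at -0.34 (SE 0.266). Pericyte and smooth muscle markers, 12 genes, ran from 150.8 to 162.4 CPM with SCFA and from 147.3 to 158.1 CPM in controls, with Rgs5 at a log2 fold change of -0.02 (SE 0.151), Vtn at 0.28 (SE 0.269) and Acta2 at -0.79 (SE 0.662). The pericyte genes Pdgfrb and Abcc9 and the smooth muscle gene Myh11 had 0 counts, and each has several rows.

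Endothelial markers, 12 genes, ran from 170.3 to 214.9 CPM with SCFA and from 130.4 to 148.3 CPM in controls, without overlap. The sums of neuron, astrocyte and microglia markers, also higher with SCFA, did not overlap either. Of the 8 tested endothelial genes 0 were called, where 0.0835% of all genes were, and 3 were higher at an unadjusted p under 0.05, where 2.97% of all genes were. Pecam1 and Tek had 0 counts, and both have several rows. The 3 at an unadjusted p under 0.05 were the glucose transporter gene Slc2a1 (log2 fold change 0.71, SE 0.229), the VEGF receptor gene Flt1 (0.78, SE 0.320) and the transporter gene Slco1a4 (0.47, SE 0.213). Each had an edgeR adjusted p of 0.864 and groups that did not overlap with SCFA higher, where 6.42% of all tested genes had such groups. Of the 8 tested genes, 6 lay above 0 and 2 below, with a median log2 fold change of 0.33. The higher sum was thus not shared by every gene of the list. Abcb1a, the most abundant of the list, had a log2 fold change of 0.27 (SE 0.192). Astrocyte markers, 10 genes, ran from 1146 to 1648 CPM with SCFA and from 827.5 to 984.3 CPM in controls, and microglia and macrophage markers, 12 genes with Cd163 at 0, from 527.7 to 836.7 CPM with SCFA and from 331.9 to 467.0 CPM in controls. In these lists 0 of 9 and 0 of 11 tested genes were called, and 4 and 6 were higher at an unadjusted p under 0.05, against the same 0.0835% and 2.97% of all genes. Of the tested astrocyte genes 8 lay above 0 and 1 below, and of the microglia and macrophage genes 9 above and 2 below. Of the astrocyte genes, Gfap had a log2 fold change of 0.95 (SE 0.207, edgeR adjusted p = 0.346) and Slc1a3, the most abundant, of 0.80 (SE 0.179, edgeR adjusted p = 0.361). Of the microglia genes, the complement genes C1qb and C1qc had log2 fold changes of 1.17 (SE 0.236, edgeR adjusted p = 0.194) and 1.01 (SE 0.230, edgeR adjusted p = 0.372). SCFA 2 was highest in all 3 of these lists, as it was in the summed basement membrane chains. This was not particular to them, as SCFA 2 was also highest for the neuron, oligodendrocyte and choroid plexus markers. It was not highest for the fibroblast and meninges or the pericyte and smooth muscle markers. The part of endothelial cells, astrocytes and microglia in the basement membrane levels was not tested. Oligodendrocyte markers, 8 genes, ran from 92.0 to 139.4 CPM with SCFA and from 90.1 to 125.3 CPM in controls, with Mobp at a log2 fold change of -0.49 (SE 0.315) and Mag, the most abundant, at 0.39 (SE 0.310).

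Exocrine pancreas markers, 12 genes, ran from 0.688 to 2.51 CPM with SCFA and from 39.3 to 386 CPM in controls, and 8 of the 11 tested were called lower. Of all 11969 tested genes, 9 were called lower (0.0752%), and these 8 were among them. Amy2a5, an amylase gene and the most abundant, measured 0.209, 0.275 and 0.149 CPM with SCFA, against 100.1, 198.9 and 10.5 CPM in controls (edgeR adjusted p = 0.0107). Ctrb1, a chymotrypsinogen gene, measured 0, 0 and 0.0744 CPM with SCFA, against 10.1, 8.99 and 2.40 CPM in controls (edgeR adjusted p = 0.0222). The summed markers were highest in control 2 and, among the controls, lowest in control 3, the library in which Col1a1 and Col1a2 were highest.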

How the data were processed

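The deposited table gives raw counts of reads per RefSeq transcript, made by the authors with CASAVA 1.8.2 and featureCounts on mm10, per the submitters' processing notes. Not given in the sources used here were how shared reads were treated, the strand setting and the aligner. Beyond the overlaps named above, Col9a3 shares 234 exonic bases with Tcfl5, Col3a1 141 with Gm47302 and Col5a1 113 with Gm13372, among others. Of 34755 rows, 34424 (99.05%) were matched to a symbol through RefSeq for GRCm38.p6 and summed per symbol.

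All genes were fitted in edgeR 4.0.16 (R 4.3.3): filterByExpr (minimum count 10, minimum total 15), TMM, quasi-likelihood F test without covariates, two-sided, Benjamini-Hochberg over 11969 genes. CPM uses TMM-scaled library sizes, and 3 counts stand for 0.206 to 0.346 CPM. The floor covers counting error only. The standard error is the log2 fold change over the square root of F. Lengths are of GENCODE vM21 transcripts matched by accession. The fit was tested on simulated data. Alternatives used DESeq2 1.42.0, limma 3.58.1 and other scalings, filters and libraries.

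The members and lists were chosen with earlier results of these data known. Named were, per class, the 5 chains with the smallest p, the 4 most abundant and their chain partners, and from each other list the 2 smallest p and the most abundant gene; Col8a2, Col26a1 and the chains named in passing were added after their values were seen. A tested chain and a few markers that enter the counts, sums and medians are not reported by name here. Library preparation used a kit sold for human FFPE RNA, per the labels' protocols.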

Additional observations from a re-analysis of the deposited data

How the results depend on the processing

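Of all genes tested, 1 was higher and 9 lower, and these counts became 30 and 25 without a filter on low counts, 14 and 17 with DESeq2, 0 and 0 with limma-voom (421 and 384 at an unadjusted p under 0.05), and 14 higher without control 2 and SCFA 2. With any 1 library dropped, 0 to 8 genes were called higher and 0 to 13 lower. Of the chain genes 0 were lower, against 2 without a filter and 1 without control 2 and SCFA 2. A replicate block gave 10 higher and 12 lower calls, 0 of them chains, though the numbers do not pair the libraries: deviations of same-numbered libraries correlated at 0.00356, 0.0131 and -0.00443. Under total-count scaling the median over all tested genes was 0.18, against 0.01 with TMM, and the medians of the fibrillar, basement membrane and other collagen chains were 0.061, 0.303 and 0.27, with Col3a1 at 0.061 and Col5a1 to 0.12. Leaving out 1 library moved the median of the other collagens between -0.055 and 0.19, of the fibrillar chains between -0.503 and -0.022 and of the basement membrane chains between 0.028 and 0.273. Without control 2 and SCFA 2 the basement membrane median was -0.18, and Col4a2 (-0.16), Lama2 (-0.18), Col4a6 (-0.55), Lama4 (-0.30), Lama5 (-0.37) and Col5a2 (-0.68) lay below 0. Lama4 was at -0.016 with limma-voom and -0.048 with the replicate block. With 1 library left out, the log2 fold change crossed 0 in many chains. Among them were Col1a2 (-1.36 to 0.11), Col3a1 (-0.52 to 0.02), Col5a1 (-0.21 to 0.026), Lama2 (-0.15 to 0.24), Col6a1 (-0.10 to 0.20), Col4a3 (-1.47 to 0.14), Col4a6 (-0.45 to 0.96), Lama4 (-0.16 to 0.30), Lama5 (-0.21 to 0.52), Lamb1 (-0.15 to 0.68) and Col5a2 (-0.41 to 0.95). So did Lama3 (-0.245 to 0.269), Col7a1 (-0.104 to 1.786), Col9a2 (-0.149 to 0.288), Col14a1 (-0.651 to 0.592), Col16a1 (-0.163 to 0.323), Col22a1 (-2.339 to 0.103), Col23a1 (-0.018 to 0.491) and Col28a1 (-2.522 to 0.208). The cause was not tested. Col4a4 had no value without control 2 and SCFA 2, with a filter on CPM or with structural RNA removed. Depth limits the chains under about 10 counts per library, and the chains with several rows.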
